A study of Cucumis melo with 4 samples.

Results

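The comparison set 2 RNA-seq libraries of melon (Cucumis melo) against 2 others. The gynoecious and andromonoecious libraries, labelled gg, were set against the monoecious and hermaphrodite libraries, labelled GG. The members are libraries and were chosen by the g allele in the sample labels, so all 4 of the series' 4 libraries take part. By label, gynoecious plants are AAgg and bear female flowers, andromonoecious plants are aagg and bear male and bisexual flowers, monoecious plants are AAGG and bear male and female flowers, and hermaphrodite plants are aaGG and bear bisexual flowers. Each library is 1 bulk of recombinant inbred lines in which RNA of several lines was mixed in equal amounts. Tissue of each sex type came from 4 stages, namely true leaves of plants with 2 of them, axillary buds with fresh leaves 1 week after transplanting, flower buds below 2 mm, and buds shortly before flowering. A bulk averages over lines and tissues, so fewer cells of a type and less RNA per cell cannot be told apart.

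In melon the g locus is known as a gene for a WIP-type zinc finger transcription factor that represses the carpel, the female organ, and the a locus as a gene for an ACC synthase, an enzyme of ethylene synthesis that acts in carpel-bearing flowers and halts their stamens. Plants with a loss of g function form carpels in flowers that would otherwise be male. The deposited locus tables, in their headers, swap the genotypes of the andromonoecious and hermaphrodite libraries relative to the sample labels. Under those headers the same split is the interaction of the 2 loci, and libraries are therefore called gg and GG here by sample label alone. By the action of g given above, the flower types go with the headers rather than with the labels. The andromonoecious plants, labelled gg, bear male flowers, and the hermaphrodite plants, labelled GG, bear bisexual ones. Differences between the sides are therefore not read here as effects of the g locus. Of the unigenes, transcripts assembled from reads, 0 were annotated as a WIP zinc finger protein, so the level of the g gene could not be used to check the labels.

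The library totals were 26.09 M reads for the gynoecious, 25.51 M for the andromonoecious, 26.39 M for the monoecious and 27.04 M for the hermaphrodite bulk. Levels are given as RPKM (reads per kilobase of unigene and per M reads, as deposited) or as whole reads recovered from RPKM. The hermaphrodite library was on another flow cell than the other 3, by the sample titles. Floral MADS and homeotic unigenes were taken as flower bud markers. Over those with at least 50 reads (19 of 27), the sum was 273 and 252 reads per M in the gynoecious and andromonoecious libraries. It was 182 and 162 in the monoecious and hermaphrodite. The list was found by words and also holds MADS-box unigenes not named as floral homeotic, such as SVP, SOC1 and AGL19. It is therefore not a measure of flower buds alone. Of the 27 unigenes, 0 to 2 per library were listed at 0. Leaf markers (22 of 31 unigenes, with at least 50 reads) summed to 426 and 384 against 402 and 419 reads per M. Pollen markers (24 of 31) summed to 238 and 272 against 256 and 365. In both lists the sides overlapped, and 0 to 3 markers per library were listed at 0. The sides thus differed in the sum of the flower bud list, but mostly through 2 of the 27, neither named as floral homeotic. These were a putative MADS-box protein (Unigene20792, with 2647 and 3747 reads in gg against 2207 and 2107 in GG) and AGL19 (Unigene41731, with 2336 and 1132 against 973 and 764). The other 25 summed to 83.3 and 62.5 reads per M in gg against 62.6 and 57.9 in GG, where the sides overlap. The part of these markers in the results below was not tested.

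With 2 libraries a side, limma on log2(RPKM + 1) with Benjamini-Hochberg adjustment called 0 of 49248 unigenes (0.0%), and 2531 had an unadjusted p under 0.05 (5.14%). The smallest adjusted p was 0.918. For a single value, an exact permutation of 2 libraries against 2 cannot go below a two-sided p of 0.333. edgeR's quasi-likelihood test on the recovered reads had 0 calls as well, with 2195 unigenes below an unadjusted p of 0.05. DESeq2 on the same reads called 9 unigenes higher in gg (0.0183% of those tested) and 20 lower (0.0406%). In all 29 of them the 2 sides did not overlap. 7 of the 29 have a described product and are given below.

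The data are therefore described by how far apart the closest libraries of the 2 sides lay. Among 34828 unigenes with at least 100 reads in all, both gg libraries lay above both GG libraries for 5374 (15.4%) and below them for 6792 (19.5%). When the closest libraries had to be at least 2-fold apart, 259 (0.744%) were higher and 532 (1.53%) lower in gg, 791 in all (2.27%). At 4-fold, 20 (0.0574%) were higher and 42 (0.121%) lower, and at 8-fold 0 were higher and 10 (0.0287%) lower. Unigenes lower in gg thus outnumbered those higher in gg at each of these distances. The larger number did not stay on 1 side when a library was left out. At 4-fold, 93 were higher and 235 lower in gg without the gynoecious library and 336 and 1047 without the andromonoecious, whereas 168 were higher and 121 lower without the monoecious and 491 and 289 without the hermaphrodite.

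**Figure D1:**
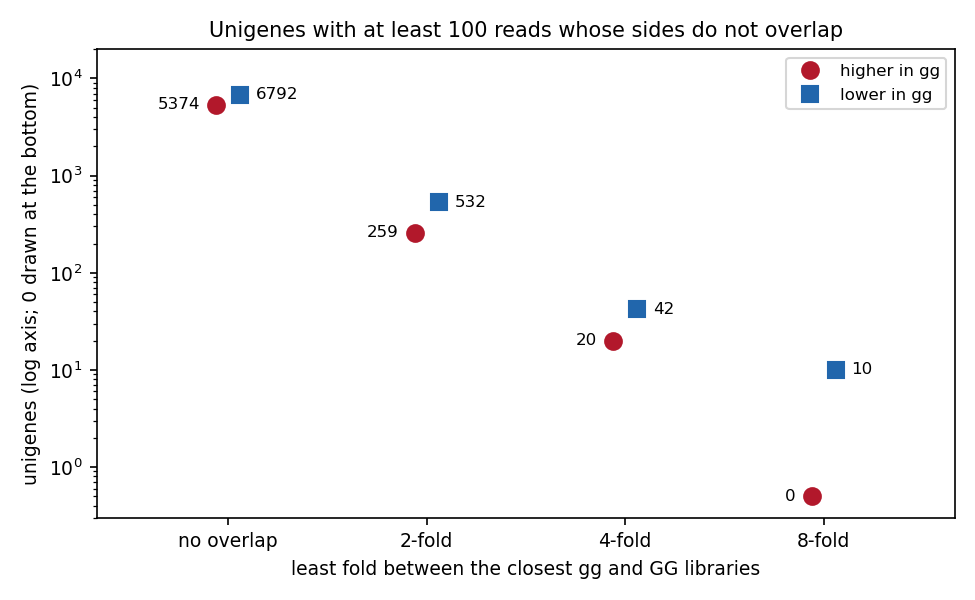
Number of unigenes with at least 100 reads (log axis) whose gg libraries both lie above (red circles) or both below (blue squares) the GG libraries, by the least fold between the closest libraries of the 2 sides. The counts are 5374 and 6792 with no overlap, 259 and 532 at 2-fold, 20 and 42 at 4-fold, and 0 and 10 at 8-fold.

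The 62 unigenes that stood 4-fold apart (0.178%) were mostly short and without a name. Of these, 47 carried no melon coding sequence (CDS), 15 (24.2%) carried one, against 20.4% of all unigenes with 100 reads, and 10 had a described product. Their median length was 543.5 nt, against 859 nt for all, and their median total was 212 reads, against 690.5. In 2 of the 42 unigenes lower in gg, both gg libraries held 0 reads, and 0 of the 20 higher in gg held 0 reads in both GG libraries. The monoecious value exceeded the hermaphrodite in 31 of the 42, and the gynoecious exceeded the andromonoecious in 13 of the 20.

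The receptor-like kinase FEI 1 (Unigene6558), whose Arabidopsis namesake acts in cell wall synthesis of the root, was higher in both gg libraries. It had 14.2 and 12.9 RPKM in the gynoecious and andromonoecious libraries, against 1.93 and 1.75 RPKM in the monoecious and hermaphrodite. These were 290 and 257 reads against 40 and 37, a 7.36-fold higher sum in gg (95% interval 5.79 to 9.46, exact binomial, counting error only). The 2 pairs gave nearly the same ratio, 7.33-fold for gynoecious over monoecious and 7.36-fold for andromonoecious over hermaphrodite, and the match to its CDS covers all 784 nt at 99.2% identity. On the log2(RPKM + 1) scale the difference was 2.35 ± 0.45 (SE, 2 libraries a side), with an adjusted p of 0.918 from limma and 0.00125 from DESeq2.

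Unigene7017, annotated as leucine-rich repeat-containing protein 40, followed the same order. It had 39.7 and 46.0 RPKM in gynoecious and andromonoecious, against 7.55 and 6.38 RPKM in monoecious and hermaphrodite. That is 234 and 265 reads against 45 and 39, or 6.15-fold higher in gg (4.87 to 7.85). DESeq2 gave an adjusted p of 0.0128 and limma 0.918. With 1 library left out, limma gave between 0.0141 (without the andromonoecious) and 1.0 (without the monoecious). The unigene is 226 nt long, and 106 nt of it match the CDS.

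Phospholipase DDHD2 (Unigene60762), named for a lipid hydrolase of mammals, had 58 reads in the gynoecious and 68 in the andromonoecious library, against 0 in the monoecious and 11 in the hermaphrodite. The summed fold was 11.9 (6.41 to 24.4), and 6.0 without the monoecious library. No BLAST match of this unigene to its CDS was recorded, so how well the name fits is not known. Of the 3 other unigenes with this CDS, 0 were higher in both gg libraries. Unigene49184 had 131 and 66 reads in gg against 143 and 147 in GG, and Unigene49185 had 863 and 333 against 416 and 519. Actin-related protein 8 (Unigene14578), which is matched at only 84.6% identity, had 161 and 155 reads in gynoecious and andromonoecious against 24 and 41 in monoecious and hermaphrodite, 5.03-fold higher in gg (3.84 to 6.68). Both were named after their values were seen.

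In the opposite direction stood 6 described unigenes. Peroxisome biogenesis factor 10 (Unigene71615), a ubiquitin ligase needed for import of proteins into peroxisomes, had 0.175 RPKM in the gynoecious and 9.29 RPKM in the andromonoecious library, against 41.5 and 50.8 RPKM in the monoecious and hermaphrodite. The sides did not overlap, but the gg libraries differed far more from each other (2 and 104 reads) than the GG libraries did (481 and 603). The fold was 9.88 lower in gg (8.08 to 12.2), 4.98 without the gynoecious library and 265 without the andromonoecious.

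Importin subunit beta-4 (Unigene65750), a receptor that carries proteins into the nucleus, had 6 reads in the gynoecious and 19 in the andromonoecious library, against 120 in the monoecious and 165 in the hermaphrodite. It was 11.0-fold lower in gg (7.31 to 17.3; DESeq2 adjusted p = 0.0249, limma 0.918). Ribosome-binding factor A (Unigene30915), known from bacteria as a maturation factor of the small ribosomal subunit, had 17 and 8 reads in gynoecious and andromonoecious against 217 and 81 in monoecious and hermaphrodite. Its fold was 11.5 lower (7.65 to 18.1; DESeq2 adjusted p = 0.0212, limma 0.918), with a match of 63 nt. In both, each pair was lower in gg: the importin had gynoecious over monoecious at 0.0506 and andromonoecious over hermaphrodite at 0.122, and the ribosome factor 0.0792 and 0.105. The importin's fold was 7.16 without the gynoecious and 23.2 without the andromonoecious library, and that of the ribosome factor was 17.8 without the gynoecious and 6.18 without the monoecious.

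The BAHD acyltransferase DCR (Unigene13779), which in Arabidopsis is needed for cutin, had 12 and 14 reads in gynoecious and andromonoecious against 82 and 73 in monoecious and hermaphrodite, 5.76-fold lower in gg (3.78 to 9.09). A second unigene annotated DCR, Unigene52410, had 900 and 517 reads against 696 and 1083, where the sides overlap. The DNA repair helicase UVH6 (Unigene64413), the Arabidopsis counterpart of a helicase of nucleotide excision repair, had 4 and 6 against 49 and 44, 8.98-fold lower (4.67 to 19.3). In UVH6 and the first DCR unigene, the 2 libraries of each side lay close together. Spermatogenesis-associated protein 20 (Unigene28655), a name from mammals, had 0 and 11 reads against 252 monoecious and 64 hermaphrodite reads, 27.7-fold lower (15.3 to 56.1). That fold rests on single libraries, being 11.1 without the monoecious, 13.7 without the gynoecious and 44.8 without the hermaphrodite library. UVH6 and the spermatogenesis-associated protein were likewise named after their values were seen. Unigene13779, UVH6 and the spermatogenesis-associated protein were called by neither limma nor DESeq2 (limma adjusted p = 0.918 for each).

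**Figure D2:**
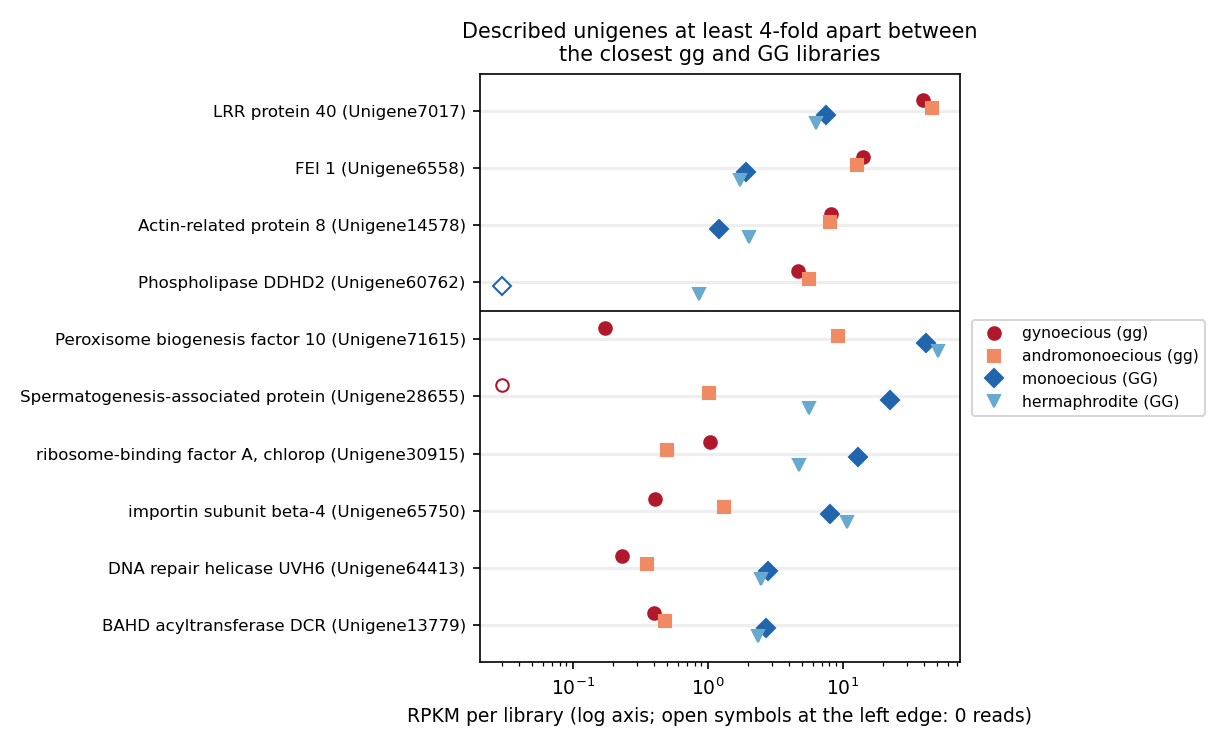
RPKM (log axis) in each of the 4 libraries for the 10 described unigenes at least 4-fold apart between the closest gg (red and orange) and GG (dark and light blue) libraries, 4 higher in gg above the line and 6 lower below it. FEI 1 sits at 14.2 and 12.9 in gg against 1.93 and 1.75 in GG, and open symbols mark 0 reads.

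Unigenes without a described product held the widest separations. Unigene70910 had 0 reads in the gynoecious and 7 in the andromonoecious library, against 222 in the monoecious and 216 in the hermaphrodite, 60.4-fold lower in gg (29.1 to 151.0; DESeq2 adjusted p = 5.11e-06, limma 0.918). Unigene45421 had 4 and 2 reads against 173 and 119, 47.0-fold lower (21.3 to 129.0; DESeq2 adjusted p = 9.73e-06). Without the gynoecious library the fold of Unigene70910 was 29.9. Higher in gg, Unigene1260 had 81 and 115 reads in gynoecious and andromonoecious against 1 and 11 in monoecious and hermaphrodite, and Unigene27851 had 92 and 44 against 8 and 8. Only the first of this last pair was called by DESeq2 (adjusted p = 0.0215, against 0.167), and its 16.9-fold difference was 100-fold without the hermaphrodite and 9.34-fold without the monoecious library.

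DESeq2 called 3 further described unigenes, all higher in gg and all between 2-fold and 4-fold apart at the closest libraries. Histone deacetylase HDT1 (Unigene79331), of a plant family of chromatin enzymes, had 955 reads in the gynoecious and 1269 in the andromonoecious library, against 87 in the monoecious and 293 in the hermaphrodite (6.06-fold, 5.43 to 6.77; DESeq2 adjusted p = 0.0222). Its match spans only 69 nt, and its fold was 3.98 without the monoecious and 13.1 without the hermaphrodite library. A second unigene annotated HDT1, Unigene53611, had 7834 and 7133 reads in gg against 3462 and 4760 in GG, 1.88-fold higher, so the sides did not overlap in either. Aspartic proteinase-like protein 2 (Unigene13591), a protein-cleaving enzyme, had 7180 and 4867 reads against 1530 and 1174 (4.61-fold, 4.42 to 4.81; adjusted p = 0.0127). Peptidyl-prolyl isomerase-like 4 (Unigene22364), a protein-folding enzyme of the cyclophilin type, had 1780 and 1082 against 309 and 431 (4.0-fold, 3.69 to 4.35; adjusted p = 0.0416). The 2 last p-values are from DESeq2, and limma gave 0.918 for all 3.

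Among well matched unigenes with a described product and at least 100 reads (2423), 392 (16.2%) were higher and 438 (18.1%) lower in gg without overlap, and 15 (0.619%) and 41 (1.69%) at 2-fold. Signalling proteins were among those higher in gg. CBL-interacting protein kinase 5 (Unigene17335), of a kinase family switched on by calcium sensors, had 198 and 230 reads in gynoecious and andromonoecious against 60 and 70 in monoecious and hermaphrodite, 3.41-fold (2.80 to 4.18). Glutamate receptor 2.5 (Unigene31790), of a family of ion channels, had 3012 and 3788 against 853 and 1152, 3.51-fold (3.34 to 3.69). In these 2 unigenes both pairs gave ratios of 3.34 to 3.57.

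Transcription factors higher in gg included MADS-box transcription factor 50 (Unigene11635), in rice an activator of flowering, with 301 and 210 reads against 89 and 81 (3.11-fold, 2.61 to 3.72). Myb-related protein 306 (Unigene41589) had 1308 and 698 reads against 247 and 344 (3.51-fold, 3.20 to 3.86), with a wider gap in the gynoecious pair (5.36-fold) than in the andromonoecious pair (2.15-fold). Unigene54188, annotated as the AP2-type factor BBM1 through a match of 69 nt at 89.9% identity, held many reads, 7734 and 8415 against 2140 and 3544 (2.94-fold). Metabolic proteins followed. The pyruvate dehydrogenase acetyltransferase component 3 (Unigene31979) had 93 and 53 reads against 17 and 16, 4.58-fold higher in gg. The plastid glucose-6-phosphate translocator 2 (Unigene39765), which carries sugar phosphate into plastids, had 170 and 131 against 54 and 0. Its 5.77-fold difference was 2.85-fold without the hermaphrodite library.

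Of the well matched unigenes lower in gg, Peroxidase 53 (Unigene45838), a secreted class of enzyme that acts on cell wall phenols, had 27 and 219 reads in gynoecious and andromonoecious against 760 and 795 in monoecious and hermaphrodite. It was 6.10-fold lower in gg (5.33 to 7.01), 28.1-fold without the andromonoecious library and 3.39-fold without the gynoecious. Formin-like protein 18 (Unigene28987), of a family that nucleates actin filaments, had 6 and 9 reads against 49 and 37 (5.54-fold lower). Choline transporter-like protein 2 (Unigene48205) had 22 and 20 against 99 and 83 (4.18-fold), and eukaryotic translation initiation factor 5A (Unigene16288) had 30 and 24 against 116 and 106 (3.97-fold). In these last 3 the libraries of each side lay close together.

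Enzymes lower in gg included a putative glucose-6-phosphate 1-epimerase (Unigene36001), with 91 and 91 reads in gynoecious and andromonoecious against 315 and 320 in monoecious and hermaphrodite (3.37-fold, 2.85 to 4.00). Protoporphyrinogen oxidase (Unigene4681), on the path to haem and chlorophyll, had 35 and 50 against 144 and 257 (4.56-fold, 3.60 to 5.83). GDP-L-fucose synthase 2 (Unigene43354), which makes a sugar donor for cell wall and glycoprotein synthesis, had 142 and 111 against 379 and 452 (3.17-fold, 2.75 to 3.67). Nicastrin (Unigene31835), in animals a subunit of gamma-secretase, had 145 and 117 against 608 and 418 (3.78-fold, 3.30 to 4.35). None of the unigenes described from CBL-interacting protein kinase 5 to nicastrin was called by limma, edgeR or DESeq2 with all 4 libraries.

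The 2 sides can be read as 2 pairs that share no library, gynoecious over monoecious (AA by label) and andromonoecious over hermaphrodite (aa by label). The pairs pointed the same way for 16130 of the 34828 unigenes with 100 reads (46.3%). Both pairs were at least 2-fold higher in gg for 460 unigenes and both 2-fold lower for 871. In 1059 the first pair was 2-fold higher and the second 2-fold lower in gg, and in 1004 the reverse. Changes of 2-fold or more that ran opposite ways in the 2 pairs were therefore more numerous (1059 and 1004) than those that ran together (460 and 871). The first pair lay further apart, with 13008 unigenes at least 2-fold different, against 7726 in the second, and a median absolute log2 ratio of 0.73, against 0.52. The median log2 ratio was 0.13 in the first pair and -0.17 in the second.

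**Figure D3:**
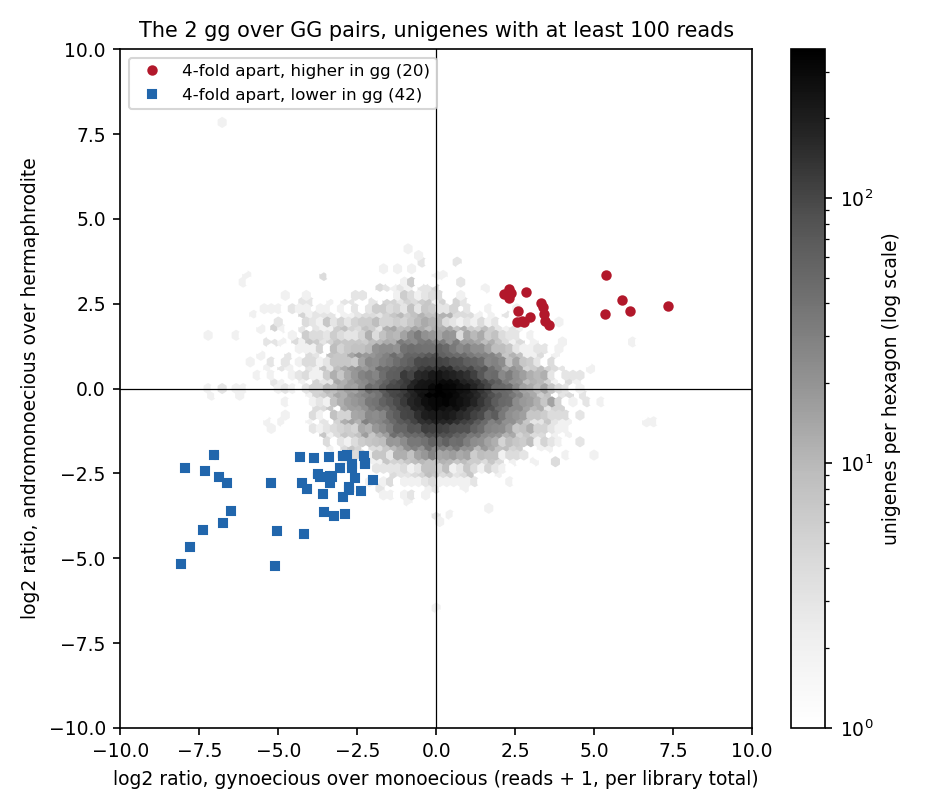
Log2 ratio of gynoecious over monoecious (x axis) and of andromonoecious over hermaphrodite (y axis), with 1 read added, for 34828 unigenes with at least 100 reads, as a density of hexagons. The 20 unigenes 4-fold apart and higher in gg (red circles) lie at the upper right and the 42 lower in gg (blue squares) at the lower left, while the densest hexagons lie near the origin.

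Split into the 3 ways of setting 2 libraries against 2, the labelled g split held on average 34.7% of a unigene's sum of squares on the log2(RPKM + 1) scale. The labelled a split held 26.0% and the split by male flowers 39.3%. Under the headers of the locus tables, the split by male flowers is that of g, and the labelled g split is the interaction of the 2 loci. The 3 shares add up to the whole by construction. FEI 1 had 99.8% along the labelled g split, the leucine-rich repeat protein 40 had 99.3% and UVH6 had 99.1%, whereas peroxisome biogenesis factor 10 had 74.1% and Peroxidase 53 had 74.0%. These unigenes were named by the gap between the same 2 sides, so large shares follow from that choice.

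Homeobox and YABBY factors pattern meristems and organs. Of their 43 unigenes with at least 50 reads, 1 (2.33%) was higher and 11 (25.6%) were lower in gg without overlap, against 15.6% and 19.3% of all 44204 such unigenes. The median log2 difference of gg minus GG was -0.26, against -0.02 for all, and the pairs gave -0.24 and -0.27. With TMM factors the median was -0.22, and 0 members were called by limma. Relative to all annotated unigenes the pairs gave -0.37 and -0.1, so the shift lay mostly in gynoecious over monoecious. Of the 15 well matched members, 0 were higher and 3 (20.0%) lower in gg without overlap, the latter near the share of all. Over these 15 the pair medians were -0.61 and -0.0. The BEL1 homolog (Unigene17194), in Arabidopsis a factor of ovule development, had 4 and 24 reads in gynoecious and andromonoecious against 88 and 73 in monoecious and hermaphrodite, 5.55-fold lower in gg (3.70 to 8.62), 3.20-fold without the gynoecious library and 19.7-fold without the andromonoecious. Its match is 156 nt at 87.2% identity.

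Several knotted-1-like proteins maintain shoot meristems. The unigene knotted-1-like 2 (Unigene23993) had 125 and 422 reads in gg against 840 and 1617 in GG, 4.34-fold lower (2.78 without the gynoecious library, 9.60 without the andromonoecious). It was singled out after its values were seen, like the other knotted-1-like unigenes and ATHB-15. A unigene annotated knotted-1-like 1 (Unigene4946) had 100 and 331 against 509 and 486, 2.23-fold lower (1.44 and 4.86 without the same libraries), but a second one with that name (Unigene48462) had 2079 and 3440 against 2628 and 5175, where the sides overlap. Knotted-1-like 6 (Unigene548) had 411 and 205 against 214 and 224, and knotted-1-like 3 (Unigene76) 257 and 93 against 92 and 150. Their sides overlap too, with sums 1.46-fold and 1.5-fold higher in gg. ATHB-15 (Unigene31587), a leucine zipper factor of organ polarity and vascular tissue, had 44 and 188 reads against 240 and 624, 3.60-fold lower, between 2.02 without the hermaphrodite and 9.59 without the andromonoecious library. REVOLUTA, of the same class, was annotated on 5 unigenes with at least 50 reads, which stood on both sides: Unigene21 was lower in gg (477 and 350 against 571 and 576), Unigene21959 was higher (548 and 427 against 410 and 381), and the sides of the other 3 overlapped.

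Peroxisome genes were on both sides. Of 28 unigenes picked by words for the peroxisome and the glyoxylate cycle, 7 (25.0%) were higher and 6 (21.4%) lower in gg without overlap, against 15.6% and 19.3% of all unigenes with at least 50 reads. At 2-fold there were 1 and 4, where 1.13% and 2.06% of all unigenes with at least 50 reads were higher and lower. The 4 were peroxisome biogenesis factor 10, given above, and 3 more. Peroxisome biogenesis protein 3-2 (Unigene70822), of the peroxisomal membrane, had 8 and 20 reads in gynoecious and andromonoecious against 68 and 91 in monoecious and hermaphrodite (5.48-fold lower, and 9.71-fold without the andromonoecious library). Protein 16 (Unigene40551), of the same membrane, had 4 and 6 against 32 and 22 (5.22-fold). The glyoxysomal processing protease (Unigene20585) had 813 and 1429 against 3025 and 4428 (3.21-fold). It was picked after its values were seen.

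Higher in gg was peroxisome biogenesis protein 6 (Unigene59018), an ATPase that recycles the import receptor, with 28 and 41 reads against 8 and 12 (3.57-fold, 2.15 to 6.21). The membrane protein PMP34 (Unigene15989), a carrier of cofactors, had 3383 and 784 reads against 535 and 563, which is 6.40-fold in the first pair and 1.48-fold in the second. Isocitrate lyase (Unigene50871), an enzyme of the glyoxylate cycle chosen after its values were seen, had 708 and 711 against 576 and 376, 1.54-fold higher. The words also took up 2-isopropylmalate synthase 2 (Unigene41279), an enzyme of leucine synthesis, among the 6 lower in gg. The list's median log2 difference was 0.14, with 0.46 in the first pair and -0.33 in the second. Relative to all annotated unigenes the pairs gave 0.33 and -0.16.

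**Figure D4:**
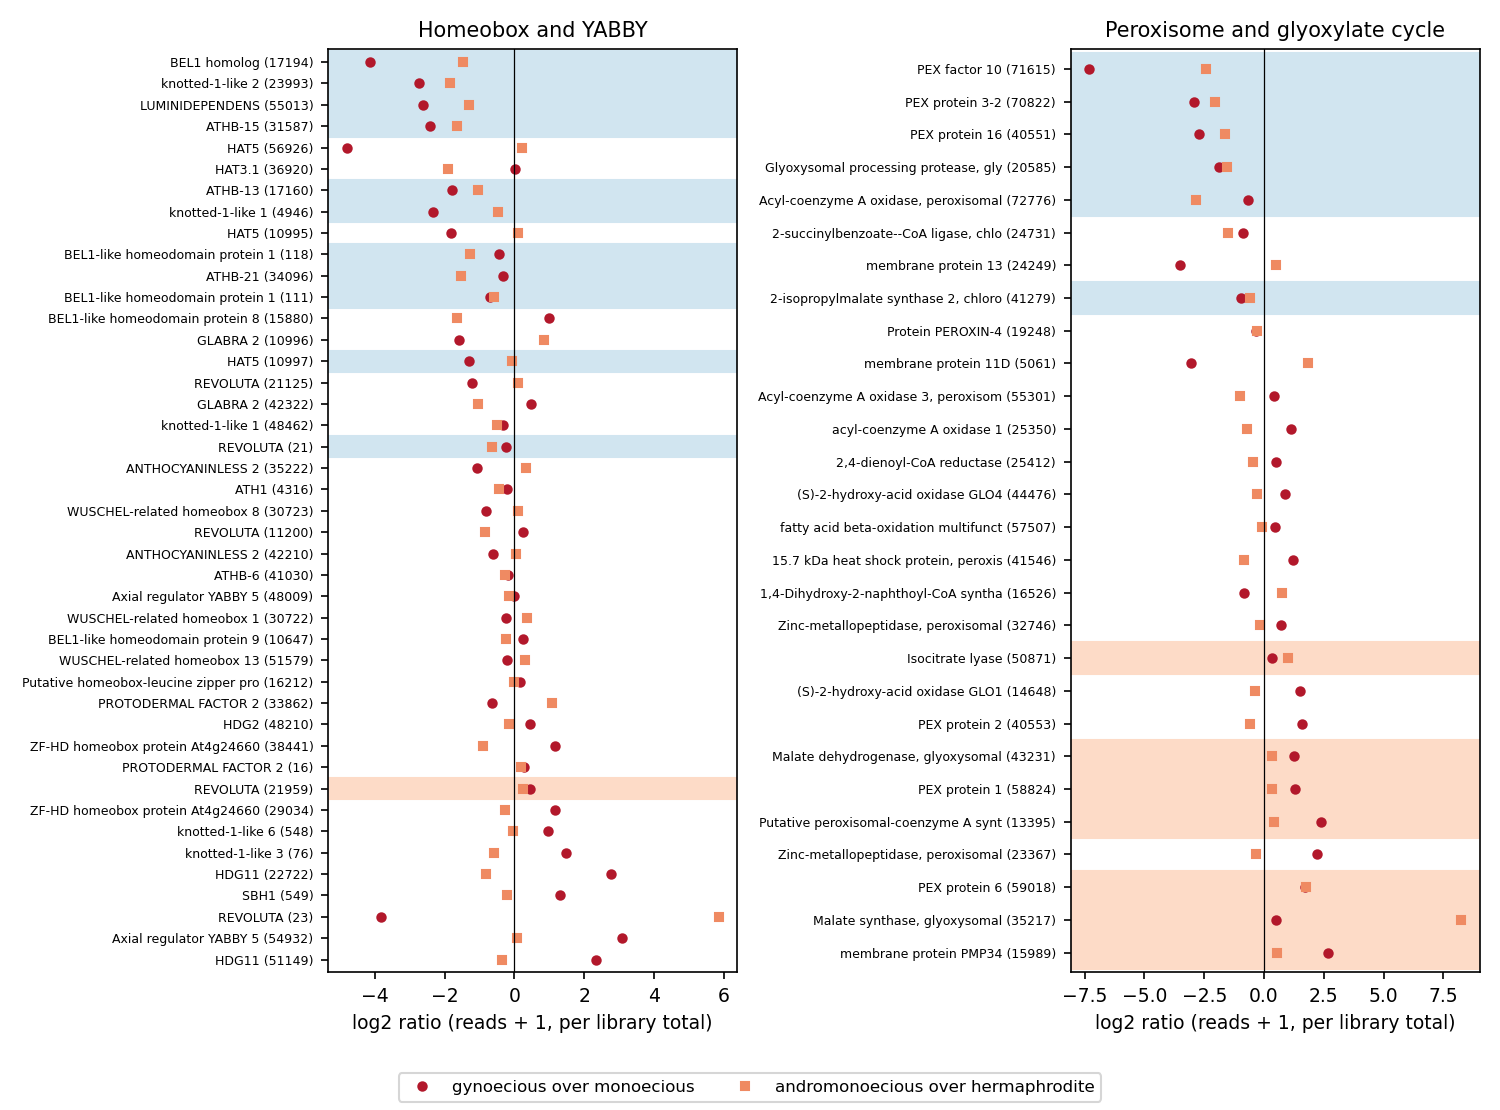
Log2 ratios of gynoecious over monoecious (circles) and andromonoecious over hermaphrodite (squares), with 1 read added, for each of 43 homeobox and YABBY unigenes (left) and 28 peroxisome and glyoxylate cycle unigenes (right), with the number of the unigene in brackets. Shaded rows are those whose 2 sides do not overlap, blue lower in gg (11 and 6) and red higher in gg (1 and 7).

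The cell cycle and histone list was picked by words for division and the packing of DNA. Of its 68 unigenes, 16 (23.5%) were higher and 8 (11.8%) lower without overlap, against 15.6% and 19.3% of all. The median log2 difference was 0.19 (0.33 in the first pair, -0.04 in the second), and 0 were called by limma. Relative to all annotated unigenes the pairs gave 0.2 and 0.13. The words also took up proteins with other roles, a tetracycline transporter and 2 ribosome-recycling factors, whose sides overlap, and, among the 8 lower, Dedicator of cytokinesis protein 9 (Unigene737, with 34 and 58 reads in gg against 142 and 66 in GG) and an ftsY homolog (Unigene30396, with 17 and 19 against 40 and 31). Members higher in gg were the spindle and kinetochore-associated protein 1 (Unigene45833), with 37 and 43 reads in gynoecious and andromonoecious against 18 and 18 in monoecious and hermaphrodite (2.30-fold higher in gg), and the cell division cycle protein 48 homolog (Unigene49401), an ATPase that unfolds proteins, with 24 and 51 against 7 and 12 (4.09-fold, and 2.59-fold without the andromonoecious library). A second unigene annotated as a protein 48 homolog (Unigene49402) overlapped with 121 and 304 against 159 and 186. Cyclin-D3-3 (Unigene22025), a driver of entry into division, had 7971 and 4613 reads against 1328 and 3420 (2.74-fold, and 4.85-fold without the hermaphrodite library). Of 4 unigenes annotated as cyclin-dependent kinase inhibitor 3, 2 were higher without overlap, Unigene24674 with 818 and 459 against 262 and 430, and Unigene48351 with 658 and 427 against 177 and 362. The sides overlapped in Unigene48350 (227 and 67 against 42 and 135) and in Unigene48352 (1037 and 1591 against 1292 and 978). Histone H1.2 (Unigene2885), which packs chromatin, had 7320 and 6600 against 5234 and 5313 (1.37-fold), whereas a second unigene of that name (Unigene55595) overlapped with 11170 and 8898 against 8564 and 11158. The second protein 48 homolog, the cyclin, the inhibitors, the histones and the unrelated proteins were chosen after their values were seen. Lower in gg was anaphase-promoting complex subunit 5 (Unigene56214), with 5 and 10 reads against 21 and 25.

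Floral MADS and homeotic unigenes, the same list as the flower bud markers summed above, numbered 19 with at least 50 reads, of which 6 (31.6%) were higher and 3 (15.8%) lower in gg, against 15.6% and 19.3% of all, while the sides of 10 overlapped. APETALA 1 (Unigene11035), a factor of sepals and floral meristems, had 220 and 185 reads in gynoecious and andromonoecious against 67 and 117 in monoecious and hermaphrodite (2.28-fold, 1.91 to 2.73), with a match at 80.5% identity. AGAMOUS (Unigene21628), the factor of stamens and carpels, had 109 and 90 against 204 and 129, 1.62-fold lower in gg (1.35 to 1.94). For AGAMOUS the closest libraries were only 1.14-fold apart. The list's median difference was 0.01. Of its 10 well matched members, 2 (20.0%) were higher and 2 (20.0%) lower without overlap, with a median of -0.09.

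Among hormone lists, cytokinin unigenes gave 5 of 35 (14.3%) higher and 10 (28.6%) lower in gg without overlap, where the shares of all unigenes were 15.6% and 19.3%. Their median log2 difference was -0.25, with -0.42 and -0.30 in the pairs, or -0.55 and -0.13 relative to all annotated unigenes. The LOG enzymes release active cytokinin. LOG3 (Unigene45428) had 7 and 16 reads in gynoecious and andromonoecious against 29 and 26 in monoecious and hermaphrodite (2.31-fold lower, and 3.84-fold without the andromonoecious library). In all, 4 LOG unigenes were lower without overlap, a count made after the values were seen. The sides of a LOG5 unigene (Unigene30855) overlapped, with 30 and 78 against 79 and 79. A unigene for cytokinin-N-glucosyltransferase 1 (Unigene74653), of enzymes that inactivate cytokinin, had 4 and 11 against 22 and 17 (2.51-fold lower, and 4.76-fold without the same library). A second unigene of that name (Unigene30856) overlapped with 80 and 249 against 260 and 135. Response regulator ARR2 (Unigene34986) instead had 5485 and 3649 against 3155 and 3083, 1.52-fold higher, while a second ARR2 unigene (Unigene6731) overlapped with 388 and 303 against 467 and 349. The regulators ARR1 (Unigene51718) and PRR95 (Unigene39023) were also higher in gg without overlap, each 1.3-fold. Of unigenes annotated ARR9, Unigene43900 was 1.11-fold higher and Unigene21487 was 1.47-fold lower. In auxin signalling, where 8 of 70 (11.4%) were higher and 15 (21.4%) lower, against the same 15.6% and 19.3%, auxin response factor 3 (Unigene12121), which in Arabidopsis patterns the gynoecium, had 4 and 7 reads against 32 and 30 (5.44-fold lower, 2.84 to 11.5).

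Ethylene synthesis had 5 unigenes with at least 50 reads, 1 (20.0%) higher and 1 (20.0%) lower without overlap, against 15.6% and 19.3% of all. Both were annotated as homologs of ACC oxidase. Homolog 4 (Unigene27008) had 77 and 29 reads in gynoecious and andromonoecious against 0 and 12 in monoecious and hermaphrodite (9.15-fold higher in gg), at 82.7% identity. Its fold was 5.06 without the gynoecious and 4.63 without the monoecious library. Homolog 1 (Unigene34982) had 47 and 76 against 101 and 141 (1.90-fold lower), and a second unigene of this name (Unigene57664) overlapped with 12 and 23 against 26 and 23. ACC oxidase 3 (Unigene9955), which carries out the last step to ethylene, overlapped with 370 and 262 against 349 and 250. The words also took up a putative ACC deaminase (Unigene20752), which overlapped with 622 and 513 against 511 and 665. Of ethylene response factors, ESR2 (Unigene7083), which in Arabidopsis acts in shoot and cotyledon formation, had 46 and 117 against 22 and 27 (3.44-fold higher, and 1.92-fold without the andromonoecious library).

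Receptor-like kinases and leucine-rich repeat proteins, the list that holds FEI 1, gave 32 of 212 (15.1%) higher and 42 (19.8%) lower, near the shares of all unigenes. Lower members were the PXL1 kinase (Unigene21102), a relative of the receptor that orders vascular cell division, with 191 and 180 reads in gynoecious and andromonoecious against 613 and 507 in monoecious and hermaphrodite (2.92-fold, 2.59 to 3.29), and a second leucine-rich repeat kinase (Unigene20444), with 228 and 476 against 1692 and 1300 (4.10-fold, 3.78 to 4.46, and 6.41-fold without the andromonoecious library). Cytochrome P450 enzymes gave 2 of 45 (4.44%) higher and 10 (22.2%) lower, against 15.6% and 19.3% of all. Their median log2 ratios were -0.47 for gynoecious over monoecious and -0.23 for andromonoecious over hermaphrodite. Relative to all annotated unigenes these were -0.6 and -0.06, so the shift lay mostly in the first pair. P450 71B19 (Unigene12095) had 1407 and 2805 reads against 4634 and 4335 (2.06-fold lower, and 3.11-fold without the andromonoecious library), and P450 71B37 (Unigene903) had 17 and 19 against 48 and 67 (3.09-fold). Flavonoid and phenylpropanoid unigenes gave 8 of 51 (15.7%) higher and 9 (17.6%) lower without overlap, near the shares of all unigenes. Chalcone synthase A (Unigene50349), the entry to flavonoids, had 83 and 74 against 229 and 221 (2.77-fold lower, 2.30 to 3.34), with pair ratios of 0.367 and 0.355. Leucoanthocyanidin dioxygenase (Unigene30279) of the same list, picked after its values were seen, had 1525 and 816 against 407 and 656 (2.28-fold higher). In all 33 lists of genes by function, limma called 0 members.

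**Figure D5:**
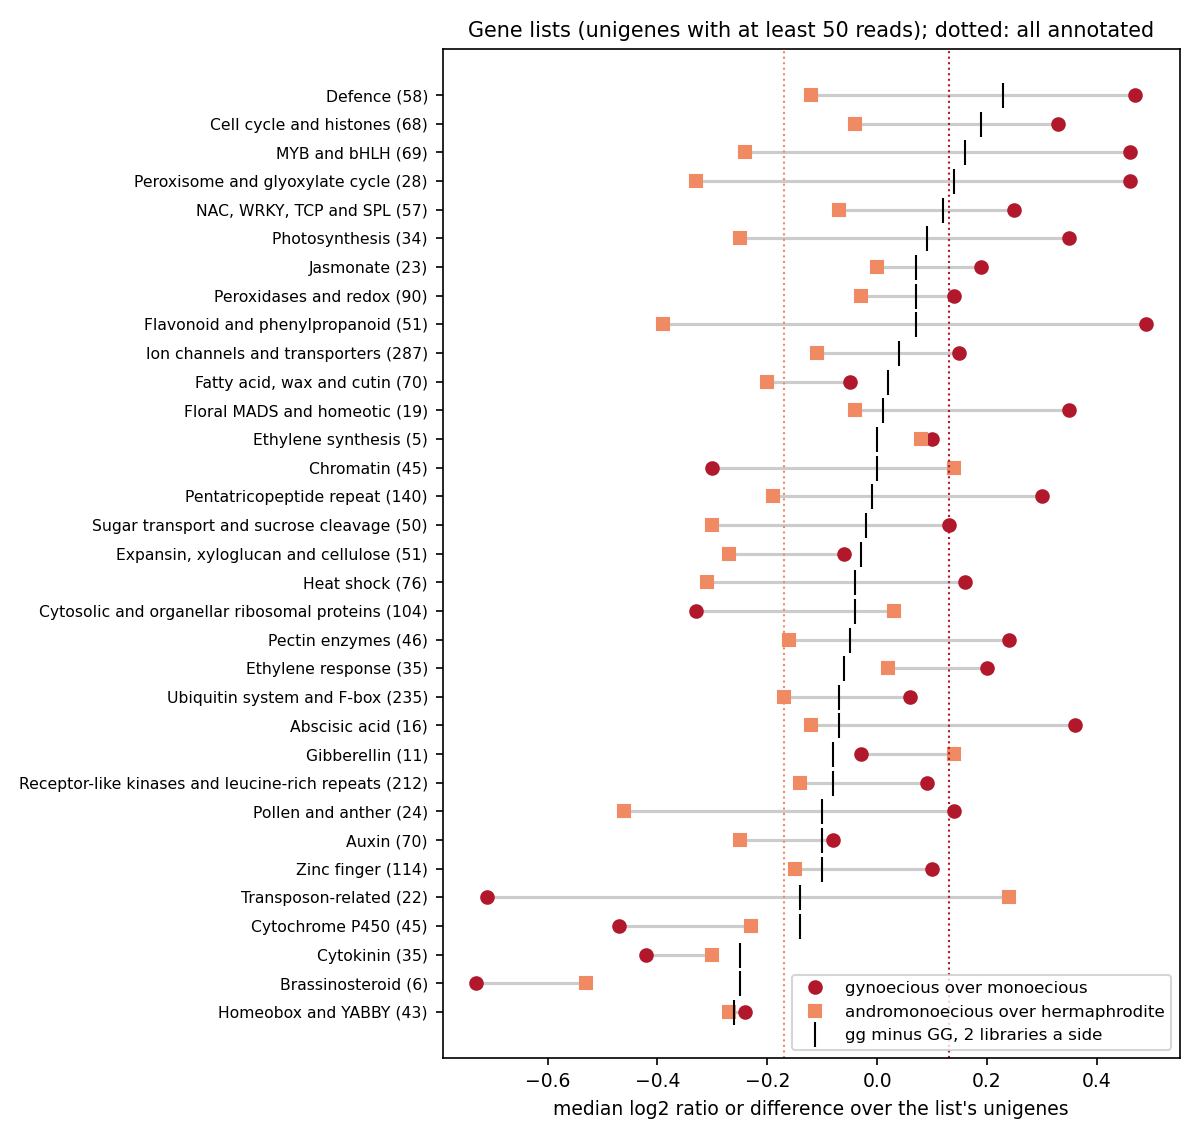
Median log2 ratio of each gene list (number of unigenes with at least 50 reads in brackets) for gynoecious over monoecious (circles) and andromonoecious over hermaphrodite (squares), with the median gg minus GG difference as a bar and the medians of all annotated unigenes, 0.13 and -0.17, as dotted lines. The homeobox and YABBY, cytokinin, brassinosteroid and cytochrome P450 lists are among those left of 0 in both pairs. In the second pair all annotated unigenes are left of 0 too, and these lists lie further from the dotted line in the first pair. The transposon-related list has the widest gap between its pairs.

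The authors' deposited tables hold their own test of each pair. Their list for gynoecious against monoecious has 1058 genes, 586 up and 472 down, and that for hermaphrodite against andromonoecious has 500, 261 up and 239 down. The 129 genes on both, 12.2% of the first and 25.8% of the second, are the 129 of the authors' deposited table for the g locus. By the directions in these tables, 26 were higher in both gynoecious and andromonoecious, 26 were lower in both, 30 were higher in both gynoecious and hermaphrodite and 47 lower in both. The listed log2 ratio equals that of the row's own reads (within 0.02) for 737 (69.7%) and 272 (54.4%) genes of the 2 lists. By the rows' own reads, 29 of the 129 were higher in both gg libraries and 26 lower in both, while 26 were higher in both gynoecious and hermaphrodite and 20 lower in both. The rest of the 129 fitted none of these patterns. Of all unigenes with at least 50 reads, 15.6% were higher in both gg libraries and 19.3% lower in both. The 129 were, however, chosen for differences within the pairs.

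Gene names in the authors' deposited lists differ from those in the per-library files. Of 1049 listed unigenes found there, 16 carried the same CDS in both sources, although the reads of all 1049 fitted their RPKM. In the per-library files the BLAST match of a unigene to its CDS lay within its length for 10598 of 11140 (95.1%), against 604 of 1058 (57.1%) for the listed pairs. Names here are therefore those of the per-library files. Unigene14578, with 161 and 155 reads against 24 and 41, is Actin-related protein 8 there and a Sec61 subunit in the authors' deposited table. Phospholipase DDHD2 (Unigene60762) has that name in both, with a listed log2 ratio of -2.71 for hermaphrodite over andromonoecious in the authors' deposited table. Its name has no recorded BLAST match behind it, as given above.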

How the data were processed

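RNA of 4 bulks, 1 per sex type, was sequenced on an Illumina HiSeq, per the labels. Which aligner and assembler were used is not given in the sources used here. The authors deposited RPKM for 76260 unigenes per library, and, in lists, read counts, log2 ratios and p-values (with false discovery rates). A deposited BLAST table gives percent identity and match length, with other columns for positions. Whole reads were recovered from RPKM and the library totals in the file headers, as the shortest length from 200 to 20000 nt that gives whole reads in all 4 libraries, within 5e-05 RPKM, the rounding of the deposited values. This worked for 100% of unigenes, and 996 of 1049 (94.9%) listed unigenes had the same length and reads, where the listed length was otherwise up to 4 times longer. Between 98.2 and 98.3% of the library totals were recovered. Counts had been expected, but the files hold RPKM, so limma 3.58.1 on log2(RPKM + 1), which understates the change of low unigenes, was the main test. Unigenes passing edgeR 4.0.16 filterByExpr (minimum count 10) were tested at an adjusted p of 0.05. edgeR and DESeq2 1.42.0 on recovered reads, TMM and DESeq2 size factors, pseudocounts of 0.1 and 5, other filters, the a locus as a term, and leaving out each library were tried. The p-values reflect the spread among the 4 bulks alone, which also holds the a locus. Folds rest on reads summed over 2 libraries a side, scaled by library totals, with exact (Clopper-Pearson) 95% intervals. For the distance between closest libraries, a library on the lower side with fewer than 3 reads was set to 3. Pair ratios for single unigenes are plain ratios, and lists use ratios with 0.5 reads added.

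Well matched means at least 95% identity over 100 nt and 30% of the unigene. Named were up to 15 such described unigenes in each direction by the fold between the closest libraries, 2 without a description, 2 of each list, 10 called by any test and the 3 with the most reads, and some others, such as further unigenes of the same name, picked after their values were seen. Members, lists and tests were chosen with earlier results of these data known. The CDS identifiers were not found in the RefSeq gene table of USDA_Cmelo_AY_1.0, so no coordinates are given. Of the deposited tables, 36 per-sample columns were not used. Unigenes that share a CDS or a family may share reads. The fits and the recovery of reads were tested on simulated data.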

Additional observations from a re-analysis of the deposited data

Results flagged for a closer look

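In 4 gene lists the 2 pairs of libraries ran in opposite directions, relative to all annotated unigenes, by at least 0.2 in each pair (log2). Each pair is 1 library against 1, so the difference was not tested. Transposon-related unigenes had a median log2 ratio of -0.71 for gynoecious over monoecious and 0.24 for andromonoecious over hermaphrodite, flavonoid and phenylpropanoid unigenes 0.49 and -0.39, chromatin unigenes -0.30 and 0.14, and cytosolic and organellar ribosomal proteins -0.33 and 0.03.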

How the results depend on the processing

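Each sex type has 1 library, so no replicate number pairs libraries. With the a locus as a term, which sets gg against GG within AA and within aa by label, limma called 0 unigenes, as it did with both other pseudocounts, without a filter, with a stricter one, with TMM factors, with DESeq2 size factors and without the monoecious library. DESeq2 called 29. Leaving out 1 library gave 0 to 847 calls in limma (847 without the andromonoecious, 13 without the gynoecious and 6 without the hermaphrodite); the lone library of a side is then assumed to vary like the other side. The 62 unigenes 4-fold apart became 159 with at least 50 reads, 12 with at least 400 reads, 791 at 2-fold, 10 at 8-fold and 56 with TMM factors. Without 1 library in turn, an alternative added after the data were seen, the count was 289 to 1383. The median log2 difference of the chromatin list was -0.31 over well matched unigenes, against 0.00 over all; the other lists moved by less than the spread between the libraries of a side under TMM factors and over well matched unigenes. All 161 named unigenes kept their direction with TMM factors. They also kept it without each library in turn, but this was fixed by their choice. The sides of a named unigene do not overlap, so leaving out 1 library cannot reverse them. limma called 22 of them without the andromonoecious library and 2 without the gynoecious. The cause of these shifts was not tested. Depth limits unigenes under 100 reads, for which intervals span several-fold.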
